A study of Mus musculus with 44 samples.

Results

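The 10 genes described here mark the endothelial cells that line blood vessels: Pecam1, Cdh5, Kdr, Flt1, Tek, Tie1, Vwf, Eng, Nos3 and Plvap. They were listed by name and not by a measured value, and each was found by its Ensembl identifier among the 43411 genes measured. RNA was sequenced from back skin of 44 female wild-type C57Bl/6 mice that were 8 weeks old at the start. They formed 5 groups: 10 saline mice, 10 mice on bleomycin for 2 weeks, 10 on it for 4 weeks, and 6 and 8 mice that recovered for 6 and 10 weeks after a 4-week course. Bleomycin, a drug that breaks DNA and is used to model the skin fibrosis of systemic sclerosis, was injected under the skin daily, by the labels as 100 µL at 1 U/mL, and the 5 groups shared strain, sex and starting age. There was 1 saline group for all comparisons, and when its mice were harvested is not given in the sources used here, so an effect of age was not tested.

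Blood vessels are lined by endothelial cells that seal against each other through the adhesion proteins Pecam1 and Cdh5 and grow in answer to vascular endothelial growth factor (VEGF), which they sense through Kdr and Flt1. A second receptor system, Tek and Tie1, reads the angiopoietins and holds the vessel wall quiet or loosens it. In skin, the vessels also let in leukocytes and supply growing hair follicles, and vessel injury is a known feature of systemic sclerosis. Since whole skin was sequenced, a change in the share of endothelial cells and a change in RNA per endothelial cell cannot be told apart. This holds for rises and for falls.

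Each mouse had between 8509094 and 15285577 reads on genes. All 10 genes had reads in every mouse and the lowest value was 64 reads. Saline mouse 1 and mouse 2 of the 2-week bleomycin group were least like their own groups, with median correlations of 0.942 and 0.938 across genes. Libraries also differed in how their values changed with the GC content of the transcripts. This GC slope, the change in log2 value per 10 percentage points of GC, ran from -0.30 to 0.19, and was below -0.14 in 8 mice: mice 1, 5 and 7 of the 2-week group, mice 1, 2 and 3 of the 4-week group and mice 2 and 3 of the 10-week recovery group.

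Since these genes are known targets of ETS-family factors, which bind a GGAA core, the RefSeq promoters (GRCm38.p6, 250 bases before to 50 after the start) were searched on both strands for GGAA and for its longer form CCGGAA. A site of the GATA factors was searched as well, spelled GATAAG. Promoters were at hand for 5 genes: Kdr, Flt1, Tek, Tie1 and Eng. The windows held 9 GGAA matches for Tie1, 5 for Kdr, 4 each for Flt1 and Eng and 2 for Tek, and 96% of all 32851 promoters held at least 1. Kdr alone of the 5 held CCGGAA, which overlaps GGAA and was in 14.9% of all promoters, and Tek alone held GATAAG, which was in 7.44%. The 250 bases before the start are shown for the 4 of these genes with the largest fold change in a comparison with saline, 5′ to 3′ on the strand of the gene, with each GGAA or its reverse complement TTCC in capitals. They put Tie1 and Tek, the receptor pair whose levels moved apart, side by side. The matches are a description of letters and not of binding.
Tie1, chr4:118489850-118490099, minus strand: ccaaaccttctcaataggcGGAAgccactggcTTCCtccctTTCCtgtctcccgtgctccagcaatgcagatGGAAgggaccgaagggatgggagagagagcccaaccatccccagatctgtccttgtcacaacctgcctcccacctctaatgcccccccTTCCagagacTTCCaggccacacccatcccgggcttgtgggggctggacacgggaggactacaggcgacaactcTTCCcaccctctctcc
Tek, chr4:94739039-94739288, plus strand: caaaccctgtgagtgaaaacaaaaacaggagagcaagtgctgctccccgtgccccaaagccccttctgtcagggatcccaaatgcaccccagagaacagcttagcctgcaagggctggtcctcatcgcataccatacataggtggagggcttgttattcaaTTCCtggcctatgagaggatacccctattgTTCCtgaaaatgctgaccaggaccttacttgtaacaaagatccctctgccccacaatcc
Eng, chr2:32646345-32646594, plus strand: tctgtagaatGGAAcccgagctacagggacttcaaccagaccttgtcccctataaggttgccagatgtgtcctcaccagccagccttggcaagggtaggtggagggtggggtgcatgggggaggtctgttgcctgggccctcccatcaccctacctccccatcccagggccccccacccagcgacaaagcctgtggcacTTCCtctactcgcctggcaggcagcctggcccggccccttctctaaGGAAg
Kdr, chr5:75978456-75978705, minus strand: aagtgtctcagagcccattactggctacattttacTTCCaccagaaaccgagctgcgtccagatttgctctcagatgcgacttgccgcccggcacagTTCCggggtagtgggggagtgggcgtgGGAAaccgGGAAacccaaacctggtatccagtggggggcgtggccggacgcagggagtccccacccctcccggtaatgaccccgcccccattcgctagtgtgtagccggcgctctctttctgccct
In these 250 bases Tie1 held 7 matches, Kdr 4, Eng 3 and Tek 2.

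In skin of saline mice, the 10 genes spread widely in level per length of transcript. Plvap, which builds the diaphragms of fenestrae and caveolae, stood highest at 349.8 ± 85.7 normalized counts per kilobase (SD, n = 10), and Nos3, the endothelial nitric oxide synthase, lowest at 37.1 ± 8.77. In between, Pecam1 had 217 ± 40.8 and Eng 192 ± 51.0, which differed by less than their SD. Cdh5 followed at 116 ± 29.9, apart from the genes above and below by more than 1 SD. Tie1 (64.2 ± 13.9), Kdr (63.6 ± 15.4), Tek (56.7 ± 13.4), Vwf (50.6 ± 17.5) and Flt1 (47.2 ± 10.3) followed each other in steps smaller than their SD, and so did Nos3 after Flt1.

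Of the 10 genes, 6 rose in at least 1 comparison with saline mice, Tek fell in 1, and Kdr, Flt1 and Nos3 passed in none. After 2 weeks of bleomycin 3 of 10 rose (Pecam1, Tie1 and Vwf) and none fell, against 17.4% and 18.2% of the 17037 genes tested that were higher and lower. After 4 weeks 5 of 10 rose (Pecam1, Cdh5, Vwf, Eng and Plvap), against 18.4% of all genes, and Tek fell, against 18.2%. After 6 weeks of recovery 3 of 10 rose (Pecam1, Cdh5 and Tie1), against 5.0%, and none fell, against 4.09%. After 10 weeks of recovery 2 of 10 rose (Pecam1 and Cdh5), against 3.54%, and none fell, against 2.30%. These calls came from limma with an adjusted p-value (Benjamini-Hochberg) below 0.05, and all 4 comparisons share the 10 saline mice.

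**Figure D1:**
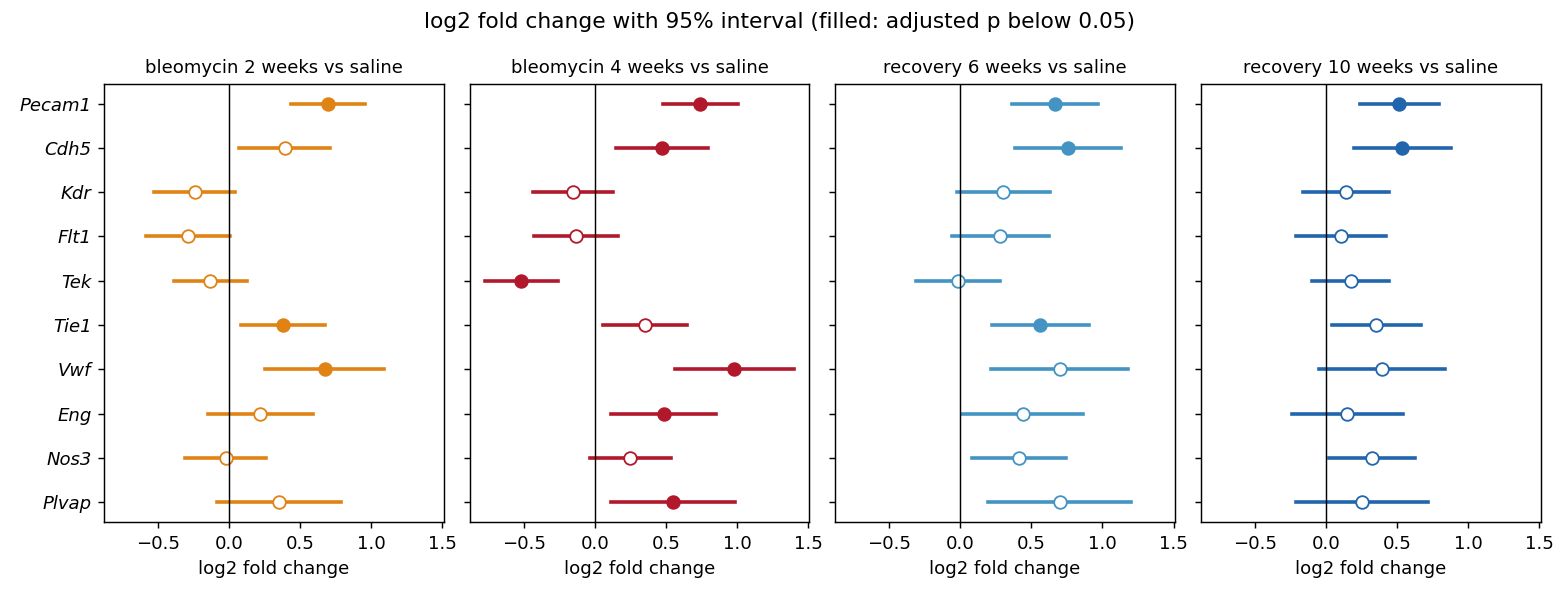
The log2 fold change against saline (x axis) of each of the 10 genes (y axis) is plotted with its 95% interval for the 4 groups, and filled points passed the test. Pecam1 was filled in all 4 panels, from 0.52 to 0.74, and Tek was the only filled point below 0, at 4 weeks of bleomycin.

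The median log2 fold change of the 10 genes was 0.29, 0.41, 0.50 and 0.29 in the 4 comparisons, where the median of all genes lay between -0.002 and 0.003. Counted as a DEG, which also needed a fold change above 1.5, 2 genes qualified after 2 weeks (Pecam1 and Vwf, both higher), against 16.7% of all genes. The same 2 qualified after 4 weeks, against 17.9%, and Pecam1 and Cdh5 after 6 weeks of recovery, against 5.04%. None did after 10 weeks of recovery, against 3.05%. After 10 weeks Tie1 and Nos3 had an unadjusted p below 0.05 in limma besides Pecam1 and Cdh5. The share of all genes at that level was not counted. In that comparison edgeR and DESeq2 gave 0 DEGs as well.

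Pecam1 (chr11:106654217-106750628), the platelet and endothelial adhesion molecule of the cell borders, gave the clearest difference. Saline mice had from 459 to 904 normalized counts with a median of 772, and mice given bleomycin for 4 weeks from 1021 to 1447 with a median of 1221. After 6 weeks of recovery the range was 1025 to 1329.9 with a median of 1189. All 10 mice of the 4-week group and all 6 of the 6-week recovery group lay above every saline mouse, as 1 of the 10 genes in each case, where 6.52% and 1.95% of all genes had groups that did not overlap. The 2-week group was wider, from 616 to 1730.0 with a median of 1285, and 8 of its 10 mice lay above all saline mice. The 10-week recovery mice had from 876 to 1205 with a median of 1079, and 7 of 8 lay above all saline mice. No gene of the 10 separated the 2-week or the 10-week recovery mice from saline mice without overlap, where 4.77% and 0.428% of all genes did. The rise was 0.69 on the log2 scale after 2 weeks (SE 0.13, adjusted p = 3.42e-05), 0.74 after 4 weeks (SE 0.13, adjusted p = 1.15e-05), 0.67 after 6 weeks of recovery (SE 0.15, adjusted p = 0.00309) and 0.52 after 10 weeks (SE 0.14, adjusted p = 0.0189). The call held in each comparison when any of the 44 mice was left out. Pecam1 is also carried by platelets and leukocytes, whose markers are given below.

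**Figure D2:**
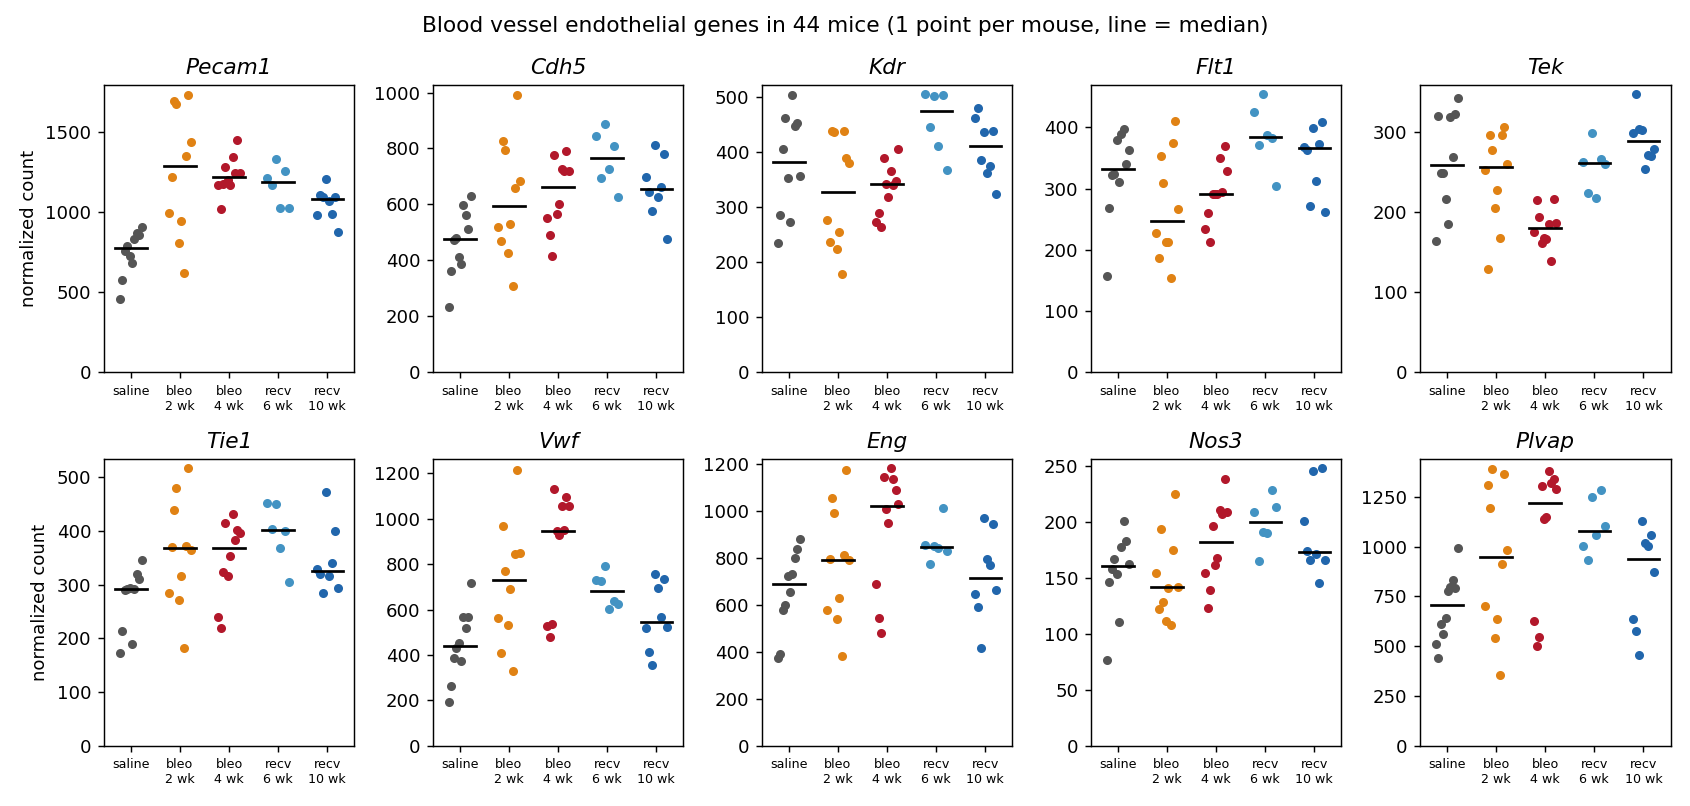
Normalized counts (y axis) of the 10 genes are plotted for each of the 44 mice by group (x axis), with a line at the group median. Pecam1 of the 4-week and 6-week recovery mice stood above all saline mice, Tek of the 4-week mice was low, and mice 1 to 3 of the 4-week group stood apart at the bottom for Vwf, Eng and Plvap.

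Cdh5 (chr8:104101625-104144511), the VE-cadherin of endothelial junctions, had its largest log2 fold change against saline in the 6-week recovery mice. Saline mice ranged from 234 to 629 with a median of 476, and 6-week recovery mice from 626 to 886 with a median of 767. The lowest recovery mouse lay within the saline range and the other 5 above it. The medians were 593 after 2 weeks of bleomycin (308 to 989), 661 after 4 weeks (416 to 790.4) and 655 after 10 weeks of recovery (474 to 812), and in each of these groups 5 mice lay above every saline mouse. The log2 fold change was 0.76 after 6 weeks of recovery (SE 0.18, adjusted p = 0.00616), 0.47 after 4 weeks of bleomycin (SE 0.16, adjusted p = 0.0167) and 0.54 after 10 weeks of recovery (SE 0.17, adjusted p = 0.0479). After 2 weeks it was 0.39 (SE 0.16, adjusted p = 0.0516), which did not pass. Between 4 weeks of bleomycin and 6 weeks of recovery Cdh5 differed by 0.28 (SE 0.18, limma adjusted p = 0.273), which did not pass either. The 10-week call was lost in 30 of the 44 fits that left out a mouse, and the 4-week call without saline mouse 1.

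The VEGF receptors did not pass the test in any comparison with saline. Kdr (chr5:75932827-75978458), the main signalling receptor for VEGF, ranged from 234 to 502 in saline mice with a median of 381. Its medians were 327 (179 to 437) after 2 weeks of bleomycin, 341 (263 to 405) after 4 weeks, 473 (368 to 505) after 6 weeks of recovery and 411 (323 to 479) after 10 weeks. Every group overlapped the saline mice. The log2 fold changes were -0.24, -0.15, 0.30 and 0.14 with adjusted p-values of 0.183, 0.422, 0.239 and 0.686, and the 95% intervals were -0.53 to 0.04, -0.43 to 0.13, -0.02 to 0.63 and -0.16 to 0.44. Flt1 (chr5:147561604-147726011), which binds VEGF tightly and in its soluble form traps it, ranged from 157 to 398 in saline mice with a median of 332. Its medians were 247 (154 to 411), 291 (213 to 370.0), 385 (304 to 455) and 366 (262 to 409) in the same order. The log2 fold changes were -0.29, -0.13, 0.28 and 0.11 with adjusted p-values of 0.122, 0.518, 0.308 and 0.795. The counts are per gene, so the soluble and the membrane form of Flt1 were not separated. Calls for both receptors were gained in other fits. Flt1 was lower after 2 weeks without saline mouse 1 or without 2-week mouse 9, with an adjusted p down to 0.016, and at -0.35 (adjusted p = 0.0352) without saline mouse 1 and 2-week mouse 2. Kdr was higher after 6 weeks of recovery, at 0.44 (adjusted p = 0.0359), with the replicate number of the mice as a term (a replicate block) and values corrected for GC and length. That block is not a pairing, since replicate numbers do not pair mice of different groups. The 6-week recovery group has numbers 1 to 6 only, while those of the saline mice run to 10.

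Set against the junction gene Cdh5 of the same mouse, both receptors stood lower in treated than in saline mice. This ratio was chosen after the values were seen and has no test. The log2 ratio of Flt1 to Cdh5 was -0.50 ± 0.18 in saline mice (SD, n = 10), -1.18 ± 0.19 after 2 weeks (n = 10), -1.11 ± 0.16 after 4 weeks (n = 10), -0.98 ± 0.07 after 6 weeks of recovery (n = 6) and -0.93 ± 0.10 after 10 weeks (n = 8). The lowest saline mouse had -0.79 and the highest of all other mice -0.81, so that the groups did not overlap. Of 17036 genes set against Cdh5 in this way, 2.28%, 4.30%, 22.6% and 1.51% lay below all saline mice in every mouse of the 4 groups. GC content was 50.5% for Flt1 and 52.2% for Cdh5, and their longest transcripts had 6895 and 3995 bases. Libraries also differed in how their values changed with transcript length. The change in log2 value per 10-fold length ran from -1.18 in 2-week mouse 2 to 0.35 in saline mouse 3. The part of GC content or length in this ratio was not tested. For Kdr the same ratio was -0.29 ± 0.23 in saline mice and between -0.92 and -0.69 in the means of the other groups, with overlap in each. Tek against Cdh5 was likewise below every saline mouse in all 10 mice of the 4-week group and all 6 of the 6-week recovery group. In the 6-week recovery group Cdh5 itself was higher by 0.76, and 22.6% of all genes were separated in the same way. The separation in that group is therefore not particular to these receptors. Nos3 against Cdh5 also had a lower mean in each of the other groups than in saline mice, with overlap in each.

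The VEGF ligands and co-receptors split between higher and lower. For this list and those below, 17.4%, 18.4%, 5.0% and 3.54% of all genes were higher in the 4 comparisons with saline. Lower were 18.2%, 18.2%, 4.09% and 2.30%. A list count near these shares is no trait of the list. After 2 weeks of bleomycin 3 of the 7 genes rose and 3 fell, and after 4 weeks 2 rose and 2 fell. Pgf, the placental growth factor that binds Flt1 but not Kdr, rose most. Its median was 17.0 normalized counts in saline mice, 32.6 after 2 weeks and 50.8 after 4 weeks, and the log2 fold changes were 1.03 (SE 0.21, adjusted p = 0.000132) and 1.497 (SE 0.21, adjusted p = 2.6e-07). It was still higher after 6 weeks of recovery, by 1.08 (SE 0.25, adjusted p = 0.00346). Vegfa, the principal ligand of Kdr, fell by 0.44 after 2 weeks (SE 0.13, adjusted p = 0.00542), and Vegfb, a ligand of Flt1, fell by 0.31 after 4 weeks (SE 0.12, adjusted p = 0.0368). After 6 weeks of recovery 1 of the 7 passed and after 10 weeks none did, with medians of 0.26 and 0.05. The median was -0.015 after 2 weeks and 0.19 after 4 weeks.

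**Figure D3:**
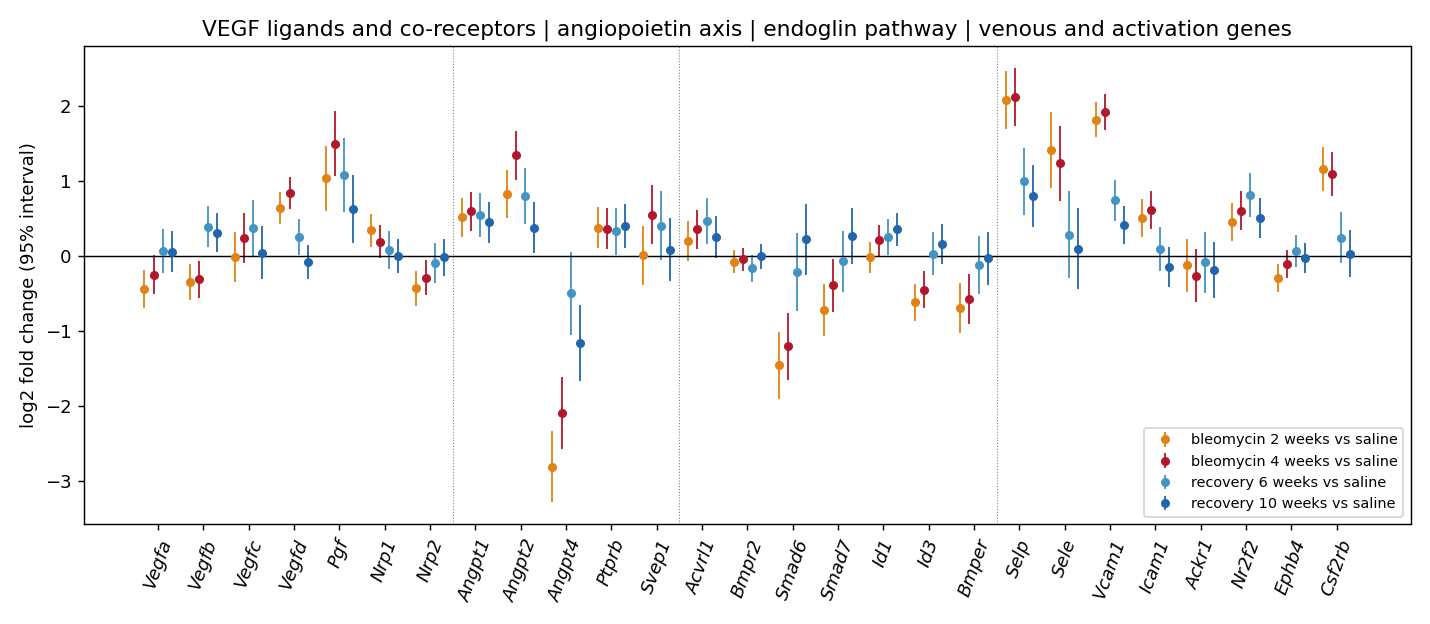
The log2 fold change against saline with its 95% interval (y axis) is plotted for 27 genes in 4 lists (x axis, lists separated by dotted lines), with 1 colour for each group. Pgf, Angpt2, Selp and Vcam1 were high in both bleomycin groups, while Angpt4 and Smad6 were low.

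The angiopoietin receptors moved apart. Tek (chr4:94739289-94874976), which binds the angiopoietins, was low after 4 weeks of bleomycin. Saline mice had from 165 to 344 normalized counts with a median of 259, and the 4-week mice from 139 to 217 with a median of 180.3. All 10 lay below the mean of the saline mice and 2 below every saline mouse. The change was -0.52 on the log2 scale (SE 0.13, adjusted p = 0.00113), or 0.700-fold, and the call held when any of the 44 mice was left out. The medians were 257 (129 to 307) after 2 weeks, 262 (218 to 299) after 6 weeks of recovery and 289 (255 to 348) after 10 weeks, and these groups overlapped the saline mice with adjusted p-values of 0.445, 0.959 and 0.545. Tie1 (chr4:118471191-118490061), the partner that binds no angiopoietin by itself and modulates Tek, did not fall in any comparison. Its median was 292 in saline mice (172 to 346), 367 after 2 weeks (181 to 517), 368 after 4 weeks (219 to 431), 401 after 6 weeks of recovery (304 to 451) and 324 after 10 weeks (284 to 473). Tie1 rose by 0.38 after 2 weeks (SE 0.15, adjusted p = 0.0392) and by 0.56 after 6 weeks of recovery (SE 0.17, adjusted p = 0.0285). After 4 weeks and after 10 weeks of recovery it was 0.36 in both, with adjusted p-values of 0.0522 and 0.181. The 2-week call was lost in 9 fits that left out a mouse and the 6-week call in 5, in each case those of saline mouse 1 among others.

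Within a mouse, Tek against Tie1 shifted clearly. This ratio does not depend on the size factor of the mouse. It was -0.05 ± 0.28 on the log2 scale in saline mice (SD, n = 10), -0.56 ± 0.40 after 2 weeks (n = 10), -0.92 ± 0.43 after 4 weeks (n = 10), -0.63 ± 0.23 after 6 weeks of recovery (n = 6) and -0.23 ± 0.28 after 10 weeks (n = 8). In the 4-week group 9 of 10 mice lay below every saline mouse, and mouse 2 at -0.02 lay among them. The difference from saline was -0.51 after 2 weeks (permutation test, adjusted p = 0.00500), -0.87 after 4 weeks (permutation test, adjusted p = 0.00240) and -0.58 after 6 weeks of recovery (exact permutation test, adjusted p = 0.00500), adjusted over 12 tests. After 10 weeks it was -0.18 (exact permutation test, adjusted p = 0.449). Tie1 transcripts had 57.6% GC and those of Tek 47.1%, and a correction for GC and length left the differences at -0.70, -0.98 and -0.51 in the 3 groups that passed.

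The other 2 ratios did not pass in any of the 4 groups. Flt1 against Kdr stood at -0.21 ± 0.26 in saline mice and between -0.26 and -0.19 in the means of the other groups, with adjusted p-values of 0.855 in all 4 (permutation tests, exact for the recovery groups). Plvap against Cdh5 was 0.59 ± 0.29 in saline mice, and the differences ran from -0.28 after 10 weeks of recovery to 0.08 after 4 weeks of bleomycin, with adjusted p-values between 0.395 and 0.855 in the same tests.

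**Figure D4:**
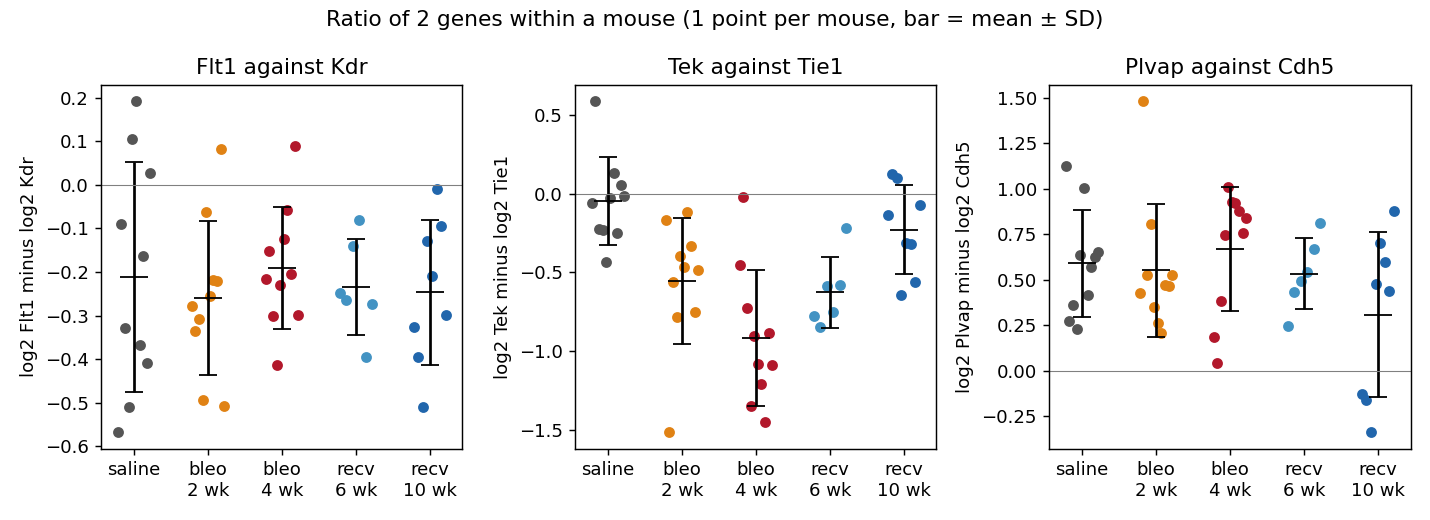
The log2 ratio of 2 genes within a mouse (y axis) is plotted by group (x axis) for Flt1 against Kdr, Tek against Tie1 and Plvap against Cdh5, 1 point for each mouse with the mean and SD. Tek against Tie1 was lowest after 4 weeks of bleomycin at a mean of -0.92, and in 10-week recovery mice it overlapped most of the saline range.

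In the angiopoietin list 3 of 5 genes rose and 1 fell after 2 weeks, and 4 rose and 1 fell after 4 weeks. Angpt2, which loosens the vessel wall and is released by activated endothelium, had a median of 70.9 normalized counts in saline mice (29.8 to 88.3) and 162 after 4 weeks (128 to 214). These 2 groups did not overlap, which held for 6.52% of all genes. Angpt2 rose by 0.83 after 2 weeks (SE 0.16, adjusted p = 5.17e-05), by 1.34 after 4 weeks (SE 0.16, adjusted p = 4.9e-09) and by 0.79 after 6 weeks of recovery (SE 0.18, adjusted p = 0.00411). Angpt4, a less abundant ligand, had a median of 34.2 in saline mice and 4.27 after 2 weeks, a change of -2.81 (SE 0.24, adjusted p = 3.82e-13), and a change of -2.09 after 4 weeks (SE 0.24, adjusted p = 1.32e-09). It was lower again after 10 weeks of recovery, at -1.15 (SE 0.25, adjusted p = 0.00348), and had not passed after 6 weeks. Angpt1, the ligand that activates Tek, rose in all 4 groups, by 0.45 after 10 weeks of recovery (SE 0.14, adjusted p = 0.0376). In the recovery groups 2 and 1 of the 5 genes rose, and 0 and 1 fell.

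Vwf (chr6:125546774-125686679), the clotting glycoprotein that endothelial cells store and release, had the largest rise of the 10 genes. Its median was 441 in saline mice (193 to 717), 729 after 2 weeks (329 to 1213) and 947 after 4 weeks (477 to 1133). The 4-week mice fell into a low set, mice 1 to 3 with 525.6, 477 and 538, and a high set of 7 mice from 928 to 1133 that lay above every saline mouse. The recovery groups had 682 (602 to 792) and 546 (356 to 756). Vwf rose by 0.67 after 2 weeks (SE 0.21, adjusted p = 0.00923) and by 0.98, or 1.98-fold, after 4 weeks (SE 0.21, adjusted p = 0.000182), and these calls held when any mouse was left out. In the recovery groups it was 0.70 (SE 0.24, adjusted p = 0.0558) and 0.40 (SE 0.22, adjusted p = 0.339).

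Plvap (chr8:71497765-71511752) and Eng (chr2:32646595-32682669), the endoglin that is a co-receptor for BMP9 and TGF-beta, split the 4-week mice in the same way. Plvap was 626, 503 and 545 in mice 1 to 3 of that group and 1141 to 1379.9 in the other 7, against 438 to 991 in saline mice with a median of 709. Eng was 689, 544 and 481 in the same 3 mice and 951 to 1184 in the other 7, against 374 to 880.5 in saline mice with a median of 690.4. Over all 10 mice Plvap rose by 0.55 (SE 0.22, adjusted p = 0.0405) and Eng by 0.48 (SE 0.18, adjusted p = 0.0334), and the calls were lost in 12 and 8 of the fits that left out a mouse. After 2 weeks the medians were 948 (357 to 1390.3) for Plvap and 794 (382 to 1176) for Eng, with adjusted p-values of 0.209 and 0.371. After 6 weeks of recovery they were 1081 (935 to 1283) and 848 (774 to 1016), and after 10 weeks 939.7 (456 to 1130.1) and 717 (418 to 972). Neither passed in the recovery groups, with log2 fold changes of 0.70 and 0.26 for Plvap and 0.44 and 0.15 for Eng. Eng shares exon bases with Fpgs on the other strand, and the strand setting of the counting is not given in the sources used here, so its counts are uncertain.

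Nos3 (chr5:24364810-24384474) did not pass in any comparison. Its median was 160.0 in saline mice (76.3 to 200.6), 142 after 2 weeks (108 to 225), 182 after 4 weeks (123 to 238), 199.7 after 6 weeks of recovery (165 to 229) and 173 after 10 weeks (145 to 248). All groups overlapped, and the log2 fold changes were -0.03, 0.25, 0.41 and 0.32 with 95% intervals of -0.31 to 0.26, -0.03 to 0.53, 0.09 to 0.74 and 0.02 to 0.62. Its adjusted p-values were 0.908, 0.165, 0.0974 and 0.216. It did pass in other fits. After 4 weeks it was 0.31 with the GC and length correction (adjusted p = 0.0328). Without the 8 mice of lowest GC slope, none of them saline mice, it was 0.40 (adjusted p = 0.0335). After 6 weeks of recovery it was 0.55 with the replicate block (adjusted p = 0.0141), which does not pair mice. Nos3 shares exon bases with Atg9b and Gm15587 on the other strand and is uncertain for the same reason.

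The 3 low mice of the 4-week group were among the 8 with the lowest GC slopes, at -0.18, -0.22 and -0.22, while the other 7 lay between -0.02 and 0.08. Plvap (60.6%), Nos3 (58.2%), Tie1 (57.6%), Eng (57.4%) and Vwf (56.5%) had the most GC of the 10 genes and Tek (47.1%) the least. The same 3 mice were also the lowest of the 4-week group for Cdh5 (52.2%), Flt1 (50.5%) and Kdr (49.4%). Mice 1 to 3 had 550, 489 and 416 for Cdh5, 234, 260 and 213 for Flt1, and 272, 288 and 263 for Kdr. The next lowest mouse of the group had 567, 291 and 317. How far the low values follow GC content was not tested. The 8 mice held no saline mouse and no 6-week recovery mouse, so leaving them out removed treated or recovered mice only. The lowest slope of a saline mouse was -0.13, in mouse 2. From the 4-week group the 3 low mice were removed, which by itself raises the means of Plvap, Eng and Vwf there. Without the 8 mice, 6 of the 10 genes rose after 2 weeks of bleomycin (Pecam1, Cdh5, Tie1, Vwf, Eng and Plvap) in place of 3. After 4 weeks 8 passed in place of 6, and after 6 weeks of recovery 6 in place of 3, while 2 passed after 10 weeks in both cases. Of all 17037 genes tested, 2959, 3138, 851 and 603 were higher and 3104, 3104, 696 and 391 lower in the main fit. Without the 8 mice 2784, 2994, 955 and 408 were higher and 2763, 2833, 831 and 315 lower. Plvap then stood at 0.91 and Eng at 0.76 after 4 weeks, and Tek at -0.56. With all 44 mice and values corrected for GC and length, 6, 8, 4 and 2 genes passed. Of all genes, 3342, 3249, 919 and 677 were then higher and 3628, 4024, 659 and 579 lower. Both steps were chosen after the data were seen.

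**Figure D5:**
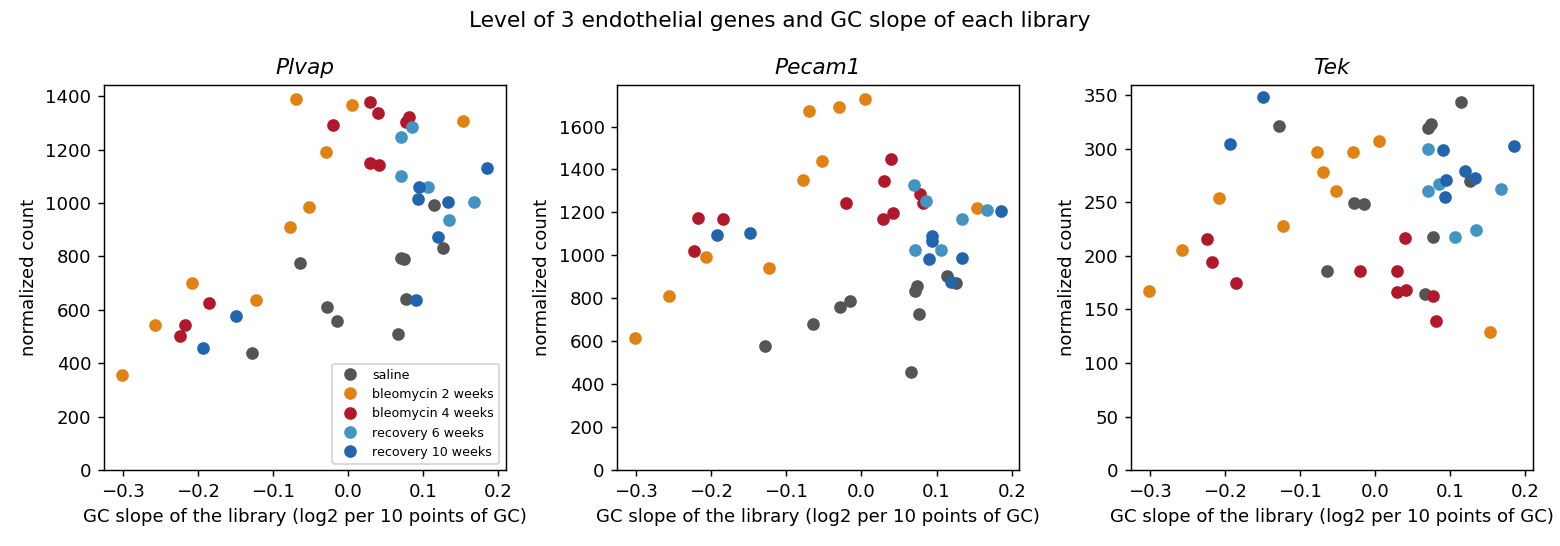
Normalized counts (y axis) of Plvap, Pecam1 and Tek are plotted against the GC slope of the library (x axis, log2 change per 10 percentage points of GC), 1 point for each of the 44 mice. Mice below -0.14 had the lowest Plvap counts of the 3 groups they belong to apart from mouse 6 of the 2-week group. No such shift was seen for Tek in the 4-week group. In the 2-week group Tek was 206 and 167 in mice 5 and 7 and 253 in mouse 1, within a range of 129 to 307.

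The direct comparisons addressed change over time. Between 2 and 4 weeks of bleomycin none of the 10 genes passed the limma test, against 5.61% of all genes, and Tek came closest at -0.38 (SE 0.13, adjusted p = 0.0621). Tek alone of the 10 had an unadjusted p below 0.05, and it passed with edgeR and with DESeq2. The share of all genes at that unadjusted level was not counted in any comparison. Between 4 weeks of bleomycin and 6 weeks of recovery 2 of 10 rose, Tek by 0.50 (SE 0.15, adjusted p = 0.0097) and Kdr by 0.46 (SE 0.16, adjusted p = 0.0341), against 11.6% of all genes, and none fell, against 13.4%. The call of Kdr was lost, and that of Tek was not, when mouse 1, 2 or 3 of the 4-week group or mouse 1, 2, 3 or 5 of the 6-week recovery group was left out, and with no filter on low values. Without the 8 mice of lowest GC slope Tek was higher and Vwf lower, and Kdr did not pass. All 6 recovery mice had more Tek than all 10 mice of the 4-week group, by a narrow margin of 218 against 217, where 10.2% of all genes had groups that did not overlap. Between 6 and 10 weeks of recovery none passed with limma, edgeR or DESeq2, against 0.0939% of all genes, and none had an unadjusted p below 0.05.

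In the endoglin pathway more genes fell than rose under bleomycin. Of the 7 of 9 genes that could be tested, 4 fell after 2 weeks and 3 after 4 weeks, while 0 and 1 rose. Smad6, an inhibitor of BMP signals, had a median of 105 in saline mice (56.0 to 308), 38.9 after 2 weeks (20.8 to 71.6) and 49.4 after 4 weeks (34.2 to 56.2). It fell by 1.45 (SE 0.22, adjusted p = 9.79e-07) and by 1.20 (SE 0.22, adjusted p = 2.65e-05). Acvrl1, the ALK1 receptor that works with endoglin, rose by 0.35 after 4 weeks (SE 0.13, adjusted p = 0.0276) and by 0.47 after 6 weeks of recovery (SE 0.15, adjusted p = 0.0396). Id1, a target of that receptor, was 0.36 higher after 10 weeks of recovery (SE 0.11, adjusted p = 0.0416). The ligands Gdf2 and Bmp10, with means of 0.187 and 0.0234 normalized counts, were below the minimum for testing, and no saline mouse had a read of either.

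The list around nitric oxide and caveolae held 8 genes, 1 of them Dll4, a Notch ligand of arterial and tip cells that belongs to neither. In the list 1, 2, 1 and 1 genes rose in the 4 comparisons, against 17.4%, 18.4%, 5.0% and 3.54% of all genes. In turn 1, 1, 0 and 0 fell. Nostrin, which moves Nos3 off the membrane, rose by 0.98 after 2 weeks (SE 0.15, adjusted p = 5.05e-07) and by 0.75 after 4 weeks (SE 0.15, adjusted p = 5.89e-05). Cavin1, a coat protein of caveolae found in many cells, fell by 0.48 and by 0.35. The only gene of the list to rise after 6 weeks of recovery was Dll4, by 0.59, and after 10 weeks it was Cavin2, another caveolar coat protein, by 0.45.

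Junction and surface genes of endothelium rose in 7, 9, 12 and 5 of 15 cases, and Cd34, which fibroblasts also carry, fell after 2 and 4 weeks. The median of the list was 0.31, 0.48, 0.61 and 0.38. Cd93, a surface lectin of endothelium and myeloid cells, rose most after 2 weeks at 1.23 (SE 0.12, adjusted p = 3.55e-11), and Mcam, which pericytes share, after 4 weeks at 1.09 (SE 0.07, adjusted p = 7.79e-16). Cd93 led again after 6 weeks of recovery at 0.82 and Emcn, a sialomucin of veins and capillaries, after 10 weeks at 0.56. Cd34 fell by 0.74 and by 0.87. The study had picked Esam, Emcn, Robo4 and, from the next list, Sparcl1 on these same mice, so their direction is not independent evidence.

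Among 13 further endothelial genes 7, 7, 8 and 4 rose. Mmrn2, a matrix protein laid down by endothelial cells, led the first 3 comparisons at 1.13, 1.29 and 0.84 (SE 0.16, 0.16 and 0.19). Its median went from 219 in saline mice to 499, 517 and 375. Myct1 led after 10 weeks of recovery at 0.68 (SE 0.16, adjusted p = 0.00641). Tm4sf1 fell by 0.63 after 2 weeks and was the only gene of this list to fall in the 4 comparisons.

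Of 15 transcription factors of endothelium 8, 6, 3 and 0 rose, and 1, 0, 0 and 0 fell. Fli1, an ETS factor that leukocytes use too, led after 2 weeks at 0.69 (SE 0.13, adjusted p = 3e-05), Gata2 after 4 weeks at 0.87 (SE 0.16, adjusted p = 2.6e-05) and Bcl6b after 6 weeks of recovery at 0.67 (SE 0.16, adjusted p = 0.0064). Klf4 fell by 0.24 after 2 weeks. Of 10 arterial and Notch genes 2, 2, 0 and 1 rose and 1, 1, 0 and 0 fell. In the bleomycin groups these rises were near the 17.4% and 18.4% of all genes. The gap junction gene Gja5 led at 1.04, 0.94 and, after 10 weeks of recovery, 0.58, and Efnb2 fell by 0.27 and 0.23 in the bleomycin groups.

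Genes of venous activation rose in most cases under bleomycin. After 2 weeks 6 of 8 genes rose and 1 fell, after 4 weeks 6 rose, and 3 rose in each recovery group. Selp, the P-selectin that captures leukocytes, had a median of 50.8 in saline mice (16.7 to 61.8), 190.4 after 2 weeks (115 to 353), 213 after 4 weeks (129 to 379), 97.2 after 6 weeks of recovery (79.9 to 111) and 84.8 after 10 weeks (67.1 to 100.3). Every treated or recovered mouse lay above every saline mouse for Selp, the gene with the largest rise of this list. Groups did not overlap for 4.77%, 6.52%, 1.95% and 0.428% of all genes in the 4 comparisons. The log2 fold changes of Selp were 2.08, 2.12, 0.99 and 0.80 (SE 0.19, 0.19, 0.22 and 0.21) with adjusted p-values of 7.48e-12, 4.64e-12, 0.00315 and 0.0146. Ephb4, a venous receptor, fell by 0.30 after 2 weeks. Of the 9 genes of sprouting tip cells 2, 4, 3 and 0 rose and 1, 1, 0 and 0 fell. Apln, a peptide of sprouting vessels, rose by 1.40 after 4 weeks (SE 0.22, adjusted p = 2.12e-06), its receptor Aplnr by 0.98 after 6 weeks of recovery (SE 0.24, adjusted p = 0.00645), and Unc5b fell by 0.86 and 0.59 in the bleomycin groups.

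Genes of neighbouring vascular cells were counted in the same way. Of 10 genes of pericytes and smooth muscle 3, 2, 3 and 1 rose, against 17.4%, 18.4%, 5.0% and 3.54% of all genes, and 2, 0, 0 and 0 fell. Higd1b, a pericyte gene, led the first 3 comparisons at 0.81, 0.94 and 1.04 and Rgs5 the last at 0.67 (SE 0.11, adjusted p = 0.000113), while Cspg4 fell by 0.62 after 2 weeks. Of 7 lymphatic genes 1, 4, 2 and 0 rose and none fell, led by Prox1 at 0.47 and 0.93 in the bleomycin groups and by Ccl21a at 0.68 after 6 weeks of recovery. Of 7 platelet genes tested 1, 3, 0 and 0 rose and 2, 1, 0 and 0 fell. Ppbp rose by 1.13 after 2 weeks and Gp1ba by 1.60 after 4 weeks, while Gp5 and Itgb3 fell by 2.04 and 0.65. Gp9 had a mean of 0.214 normalized counts, with no read in saline and 6-week recovery mice, and was not tested. The summed platelet list ran from 769 to 1190.3 in saline mice, 495 to 2814 after 2 weeks and 804 to 1252 after 4 weeks. Of 5 red cell genes 2 rose after 2 weeks, led by Hbb-bs at 0.85, and none passed elsewhere.

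Other cell types of the skin moved with the treatment, and their part in the endothelial values was not tested. Of 8 leukocyte genes 7 rose after 2 weeks and 7 after 4 weeks, led by Itgam at 1.57 and 1.40, and none passed in the recovery groups. Their summed level ran from 4471 to 11257 normalized counts in saline mice, 10320.3 to 36421 after 2 weeks, 8877 to 25705 after 4 weeks, 7018 to 8780.2 after 6 weeks of recovery and 5613 to 7797 after 10 weeks. The summed leukocyte level of both recovery groups lay within the saline range. Whether leukocytes add to the Pecam1 counts of any group was not tested. All 8 hair follicle genes tested fell in both bleomycin groups, led by Krt25 at -10.51 and -8.34, and their sum ran from 2054 to 211154 in saline mice, from 117 to 1849 after 2 weeks and from 151 to 4758 after 4 weeks, which overlapped the saline mice. Of 6 fibroblast genes 5, 3, 1 and 1 fell, led by Dpt and in recovery by Pdgfra, and none rose. Of 5 adipocyte genes 2 and 3 fell in the bleomycin groups, led by Lep at -2.43 and -1.68, and Adipoq rose by 0.53 after 10 weeks of recovery. Krt14 rose by 0.35 after 2 weeks and Krt10 fell by 0.38 after 4 weeks, alone among 5 keratinocyte genes. Myh1 was the only 1 of 6 muscle genes to pass, at 0.69, 1.14 and 0.86 from 4 weeks on. Of 5 genes of dividing cells 2, 5, 5 and 0 fell, led by Aurkb, Ccnb1 and Top2a.

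Across the 44 mice, with group means taken off, 9 of the 10 genes varied together. The Pearson correlation of log2 values was highest for Eng with Plvap, at 0.94, and the median correlation of a gene with the other 9 was from 0.71 to 0.87 for all genes but Tek. Tek had a median of 0.53 and its correlation was 0.11 with Plvap and 0.24 with Eng. These correlations describe mice that share libraries and size factors. The libraries also differed in GC slope, and its part in the correlations was not tested. Genes outside the 10 that followed their mean z-score most closely over the 44 mice were Epas1 (r = 0.931), Esam (0.931), Pdgfrb (0.923), Mmrn2 (0.921), H6pd (0.905), Adcy4 (0.904), Aqp1 (0.903) and Podxl (0.898). Of these, Epas1 and Adcy4 did not pass in any comparison with saline, Mmrn2 rose in all 4, and Pdgfrb, a pericyte gene, was 0.51 lower after 2 weeks (adjusted p = 0.0231).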

How the data were processed

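RNA from back skin of 44 mice was sequenced by the authors from a TruSeq stranded mRNA kit. Per the submitters' processing notes, STAR 2.4.0 aligned the reads to mm10 and DESeq2 1.12.3 normalized them. The counting tool and its strand setting are not given in the sources used here. The authors deposited normalized counts (a signal per gene: reads divided by the size factor of the mouse). Whole reads could be recovered from the steps of these values, with 100.0% of values whole in every mouse within a tolerance of 0.1, and edgeR and DESeq2 were run on those reads as alternatives. Each mouse had 8509094 to 15285577 reads, and a count of 0 allows up to 3 reads.

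The main test was limma 3.58.1 (R 4.3.3, trend) on normalized counts after adding 1 and taking log2. It held all 5 groups in 1 fit and no block. The 17037 genes with a mean above 3 normalized counts were tested, and p-values were adjusted over all of them (Benjamini-Hochberg, below 0.05). Because of the added 1, log2 differences of low genes come out too small. Ratios of 2 genes were tested by 2-sided permutation (100000 resamples for 10 against 10 mice, exact otherwise; scipy 1.17.1), adjusted over 12 tests. On simulated data for 4 weeks of bleomycin against saline, limma recovered 93% of 100 genes changed by 1 on the log2 scale. It recovered 100% of 100 genes changed by 2, with 11 false calls among 16817 genes. Recovery of changes below 1 was not tested. Against saline, the log2 fold changes of the 10 genes ran from -0.52 to 0.98. Alternatives were edgeR 4.0.16, DESeq2 1.42.0, another pseudocount, other filters and scalings, fewer mice, a replicate block, and corrections for GC and length. All 10 genes were named, with the largest rise and fall of each list in each comparison with saline, list genes without a read in a group, and the 8 genes most alike. The genes and lists were chosen with earlier results of these data known. Older symbols were matched to Vegfd, Cavin1, Cavin2, Gucy1a1 and Gucy1b1, while Tchh and Mki67 were not analysed here. Gene positions are from GENCODE (GRCm38). Mice are separate animals, and p-values measure the spread between them. Replicate numbers do not pair mice of different groups.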

Additional observations from a re-analysis of the deposited data

Results flagged for a closer look

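Eng in mouse 5 of the 6-week recovery group stood apart from the other 5 mice, at 1016 normalized counts against 856.8 in the nearest mouse. It was the only 1 of 50 sets of values examined (10 genes in 5 groups) with such a gap, and chance gives about 1 in 20. A single set in 50 does not exceed that rate.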

How the results depend on the processing

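Over all alternatives but those leaving out 1 mouse, 514 values of single genes and ratios kept their direction and side of the threshold, 40 passed newly, 14 no longer passed and 12 changed sign. The cause of each change was not tested. The 8 mice of lowest GC slope held no saline mouse, so fits without them removed treated or recovered mice only. The replicate block is not a pairing of mice. The 6-week recovery group has replicate numbers 1 to 6 only, while those of the saline mice run to 10. After 2 weeks of bleomycin, the 3 genes past the test became 6 with the GC and length correction, 6 with that correction and the replicate block, and 6 without the 8 mice of lowest GC slope, and the 2 DEGs became 5 without those mice. After 4 weeks the 2 DEGs became 5 without them and 4 at a log2 threshold of 0.5. After 6 weeks of recovery the 3 genes became 7 with the replicate block, 8 with block and correction and 6 without the 8 mice, and the 2 DEGs became 6, 5 and 4. Over all genes in that comparison, 851 were higher and 696 lower in the main fit, 1209 and 998 with the block, and 1205 and 1047 with block and correction. The DEGs over all genes were 567 higher and 292 lower in the main fit, 759 and 370 with the block, 716 and 392 with both, and 576 and 300 without the 8 mice. After 10 weeks the 2 genes became 1 with no filter, TMM, quantile normalization, only the 2 groups, 42 mice (without saline mouse 1 and 2-week mouse 2) and edgeR, and the 0 DEGs became 1 with the block, 1 with block and correction and 2 at a log2 threshold of 0.5. Between 2 and 4 weeks 0 became 1 (Tek) with quantile normalization, 42 mice, edgeR, DESeq2, the correction, and block and correction. Between 4 weeks and 6 weeks of recovery 2 became 1 with no filter.

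Signs changed only for values near 0. Nos3 after 2 weeks was 0.14 with the correction, 0.14 with block and correction and 0.081 without the 8 mice. Tek after 6 weeks of recovery was 0.056 with the block, 0.038 with the correction and 0.11 with both. Flt1 after 10 weeks was -0.0055 with 42 mice. Flt1 against Kdr was -0.019 after 4 weeks with 42 mice and 0.033 after 10 weeks without the 8 mice. Plvap against Cdh5 was 0.0024 after 6 weeks of recovery with 42 mice, and 0.12 with the correction and 0.059 without the 8 mice after 2 weeks.

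Leaving out 1 mouse at a time, the genes past the test ranged from 2 to 4, 3 to 7, 2 to 5 and 1 to 2 in the 4 comparisons with saline, the DEGs from 1 to 2, 2 to 3, 2 to 4 and 0 to 1, and the direct comparisons from 0 to 1, 1 to 3 and 0 to 0. The 3 after 4 weeks came without saline mouse 1, and the 5 after 6 weeks of recovery without 2-week mouse 7. Nos3 after 2 weeks ranged from -0.13 to 0.023, Tek after 6 weeks of recovery from -0.089 to 0.029 and Flt1 after 10 weeks from -0.0055 to 0.16. Replicate numbers did not pair the mice: the median correlation was -0.0022 for mice of equal number and -0.0042 for mice of other numbers. Of 78 pairs of equal number a share of 0.231 had a correlation above 0.1. Pecam1, Cdh5, Tek, Tie1, Vwf and Eng were lowest in saline mouse 1 and highest in saline mouse 10, while Kdr, Flt1, Nos3 and Plvap were not. An order along the numbers was not tested.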

Other observations

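Pecam1 against Cdh5, as a log2 ratio within a mouse, was above every saline mouse in 6 of 10 mice after 2 weeks and 4 of 10 after 4 weeks, but in 0 of 6 and 0 of 8 recovery mice. This ratio was chosen after the values were seen and was not tested.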
